A study of Homo sapiens with 6 samples.

Results

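The genes described here are 46 genes that carry human cells from G1 into S phase and copy their DNA: G1 cyclins and their kinases, E2F factors and the pocket proteins that hold them, and the replication licensing, fork and nucleotide supply genes. They were chosen by gene symbol, by a rule that names functions and uses no measured value. The choice was made with earlier results of these data known. All 46 were among the 20824 genes of the RPKM table, and 45 passed the filter, which asked that the 6 libraries average 0.5 RPKM or more. The gene that did not pass was *CCND2*, listed at 0.00347 and 0.0044 RPKM in EV, at 0.00376 and 0.00387 in TBX3iso1 and at 0 in both TBX3iso2 libraries.

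RNA-Seq was performed on 21NT cells, a breast cancer cell line that models ductal carcinoma in situ and has low TBX3 of its own. The 3 lines were 21NT + EV, stably transfected with the empty pcDNA3.1 vector, 21NT + TBX3iso1 and 21NT + TBX3iso2, which carried the same vector with the shorter or the longer splice isoform of the T-box factor TBX3, with 2 libraries per line. All 3 lines went through G418 selection, were kept as pools of resistant cells and grew in medium with insulin, epidermal growth factor, hydrocortisone and 10% fetal bovine serum until 80% confluence. Each line was a single transfected pool and nothing stated that its libraries came from separate cultures, so p values measured the spread between the libraries of a pool and not between transfections.

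Entry into S phase is governed by cyclin D with CDK4 or CDK6 and by cyclin E with CDK2, which phosphorylate the pocket proteins and release E2F factors to transcribe replication genes. Licensing loads the MCM2 to MCM7 helicase at origins through ORC, CDC6 and CDT1. CDC45 and the GINS complex then complete the active helicase, and the clamp, clamp loader, polymerases, nuclease and ligase copy the strands. In breast epithelium cyclin D1 is best known as a target of growth factor and steroid hormone signals, and the inhibitors of CDKs act as brakes on the same step.

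The libraries held between 43176600 and 54512400 alignments, at which 1 RPKM of a transcript of 1 kb stood for 43.2 to 54.5 reads. *TBX3*, read as the check of the labels, was at 8.52 and 8.24 RPKM in EV, at 13.1 and 11.4 in TBX3iso1 and at 17.5 and 15.5 in TBX3iso2. Both lines labelled with an isoform were above EV, TBX3iso1 by 1.45-fold and TBX3iso2 by 1.96-fold. A value per gene does not tell the isoforms apart, so the check covers *TBX3* as a whole. All 7 breast epithelial markers were at 1 RPKM or more. Markers of leukocytes, endothelium, fibroblasts and adipocytes each summed to at most 10.7 RPKM in any library, against at least 2660 for the epithelial markers. The leukocyte list, nearly all *CD14*, lay between 9.45 and 10.7 in EV and between 2.23 and 2.61 in the isoform lines. The endothelial list, nearly all *PECAM1*, was at 7.20 to 7.56 in EV and at 1.17 to 1.4 in the isoform lines, and the fibroblast list, nearly all *COL1A1*, at 4.57 to 4.83 and at 7.11 to 8.65. The defining markers *PTPRC*, *CD3E*, *CDH5* and *VWF* were under 0.1 RPKM in every library, and the part of these lists in the results was not tested.

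Promoters of RefSeq on GRCh38.p14, which run from 250 bases before a gene's start to 50 bases after it, were found for 39 of the 46 genes. The E2F site, the element through which E2F factors and pocket proteins bind replication genes, was searched on both strands as TTTCCCGC, TTTGGCGC, TTTCGCGC and TTTGCCGC. At least 1 of these was present in 22 of the 39 promoters (56.4%), against 3.31% of all 35116 promoters and 5.63% of the 14064 genes of the table that had a promoter. For 17 of these genes a match began within the 100 bases before the start. Some of the 31 matches overlapped on opposite strands, as in *MCM6* and *MCM2*. The CHR element TTTGAA, known from genes of mitosis, was in 2 of the 39 promoters (5.13%), against 14.7% of the genes of the table. The T-box core GGTGTGA was also in 2 of 39 (5.13%), *E2F1* and *MCM7*, against 4.3%.

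The 200 bases before the start are printed 5′ to 3′ for members that rose in at least 1 isoform line and had an E2F match, and for *E2F1* and *RBL1*, which belong to the E2F pathway itself and did not rise. Capitals mark the E2F matches that lie whole within these bases. *MCM6* was read at chr2:135876444-135876643 (minus strand), *CDCA7* at chr2:173354672-173354871 (plus strand), *CDC25A* at chr3:48188418-48188617 (minus strand), *MCM3* at chr6:52284743-52284942 (minus strand), *RFC3* at chr13:33817949-33818148 (plus strand), *GINS2* at chr16:85688955-85689154 (minus strand), *RBL1* at chr20:37095998-37096197 (minus strand) and *E2F1* at chr20:33686386-33686585 (minus strand).
MCM6: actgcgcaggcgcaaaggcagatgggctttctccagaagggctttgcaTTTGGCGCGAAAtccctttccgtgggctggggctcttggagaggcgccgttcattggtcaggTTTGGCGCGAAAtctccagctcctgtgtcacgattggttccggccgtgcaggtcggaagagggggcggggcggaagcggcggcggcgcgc
CDCA7: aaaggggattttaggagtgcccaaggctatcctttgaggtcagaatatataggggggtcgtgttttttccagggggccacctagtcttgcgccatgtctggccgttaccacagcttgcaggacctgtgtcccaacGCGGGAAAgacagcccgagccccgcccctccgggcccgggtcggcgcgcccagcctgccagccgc
CDC25A: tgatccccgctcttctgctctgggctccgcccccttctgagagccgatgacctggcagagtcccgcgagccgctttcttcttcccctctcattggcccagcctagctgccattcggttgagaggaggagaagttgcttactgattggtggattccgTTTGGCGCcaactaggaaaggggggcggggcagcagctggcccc
MCM3: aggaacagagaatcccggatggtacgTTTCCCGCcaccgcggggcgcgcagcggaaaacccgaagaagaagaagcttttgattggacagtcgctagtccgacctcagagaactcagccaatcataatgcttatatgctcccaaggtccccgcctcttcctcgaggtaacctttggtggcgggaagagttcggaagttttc
RFC3: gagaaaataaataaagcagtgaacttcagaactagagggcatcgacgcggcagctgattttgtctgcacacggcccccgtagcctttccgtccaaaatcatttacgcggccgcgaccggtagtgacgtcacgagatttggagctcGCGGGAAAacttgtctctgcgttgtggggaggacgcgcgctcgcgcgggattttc
GINS2: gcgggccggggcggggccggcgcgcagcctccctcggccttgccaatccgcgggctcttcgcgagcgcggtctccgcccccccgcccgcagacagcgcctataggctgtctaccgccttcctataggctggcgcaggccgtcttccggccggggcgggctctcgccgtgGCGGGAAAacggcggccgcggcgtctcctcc
RBL1: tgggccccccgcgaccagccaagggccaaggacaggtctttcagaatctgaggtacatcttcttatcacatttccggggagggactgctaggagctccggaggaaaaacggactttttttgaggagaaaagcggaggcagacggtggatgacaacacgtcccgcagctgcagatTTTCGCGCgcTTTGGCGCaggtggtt
E2F1: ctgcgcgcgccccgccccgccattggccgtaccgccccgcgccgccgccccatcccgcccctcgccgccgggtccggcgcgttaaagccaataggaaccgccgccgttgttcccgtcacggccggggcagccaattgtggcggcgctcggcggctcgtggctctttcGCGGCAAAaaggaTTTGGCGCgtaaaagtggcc
In *MCM6* each stretch in capitals holds TTTGGCGC and, on the other strand, TTTCGCGC, so that 4 matches lie at 2 places. *CCNE1*, *ORC1*, *FEN1*, *RRM2* and *MCM10*, which are among the genes that rose, had a promoter without a match, which says only that these letters were not in this window.

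With either isoform, more of the 45 tested genes were above EV than below it, and none was called lower. In 21NT + TBX3iso1, 9 genes (20%) rose, meaning a change of more than 1.5-fold at an adjusted p under 0.05 in limma with Benjamini-Hochberg adjustment, against 7.46% of the 12805 genes tested. In 21NT + TBX3iso2, 13 genes (28.9%) rose, against 8.94%. No member fell in either comparison, where 14.1% and 12.3% of all tested genes were called lower, and in this fit none was lower even at an unadjusted limma p under 0.05, against 30.6% and 26.8%. *CCND3* alone was lower at an adjusted p under 0.05 under some alternatives, 4 of 18 with TBX3iso1 (limma adjusted p from 0.00259 to 0.456 over the 18) and 3 of 18 with TBX3iso2 (0.0224 to 0.844), each time by less than 1.5-fold. Without regard to the size of the change, 25 members (55.6%) with TBX3iso1 and 31 (68.9%) with TBX3iso2 were higher at an adjusted p under 0.05, against 19.0% and 22.9% of all tested genes. In bulk RNA, a larger share of cells in S phase and more RNA of these genes per cell cannot be told apart.

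Both libraries of the isoform line were above both EV libraries for 38 members with TBX3iso1, against 34.3% of all tested genes, and likewise for 38 with TBX3iso2, against 37.5%. Both libraries lay below EV for 1 member with TBX3iso1, *CCND3*, and for 0 with TBX3iso2, against 44.1% and 37.2% of all tested genes. The median log2 fold change over the members was 0.32 with TBX3iso1 (middle 50% of genes 0.20 to 0.51) and 0.43 with TBX3iso2 (0.23 to 0.60), while over all tested genes it was −0.05 and 0.00. The highest fold change of a member was 2.08.

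The isoform comparisons used the same EV libraries, so an error in EV moves both in the same way. EV replicate 1 was above EV replicate 2 for 41 of the 45 members, by a median of 0.08 on the log2 scale. Against the mean of both EV libraries, replicates 1 and 2 had medians of 0.038 and −0.038 over the members. Over all tested genes these were 0.014 and −0.014. Without EV replicate 2, the count of members that rose stayed at 9 with TBX3iso1 and was 7 with TBX3iso2, and those at an adjusted p under 0.05 and higher numbered 14 and 19. The 6 calls with TBX3iso2 that were lost without it, *CCND1*, *ORC1*, *ORC6*, *MCM10*, *GINS4* and *RFC3*, came to less than 1.5-fold. *CCND1*, *ORC1* and *RFC3* were also short of it without TBX3iso2 replicate 1, and *ORC6* and *FEN1* without TBX3iso2 replicate 2.

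**Figure D1:**
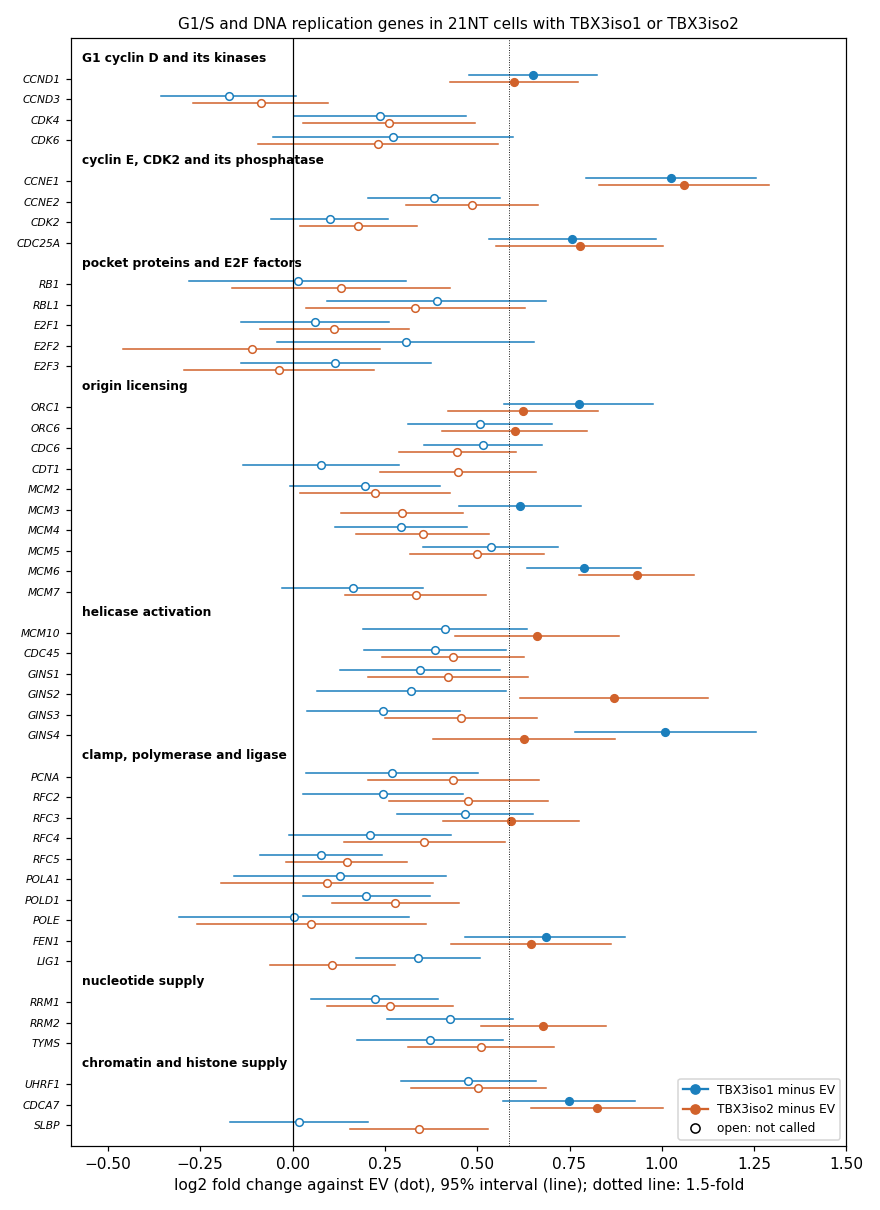
Log2 fold change of each of the 45 tested genes against EV (horizontal axis), by role, for TBX3iso1 (blue) and TBX3iso2 (orange); dots are limma estimates from 2 libraries per line, lines their 95% intervals, filled dots genes called higher and the dotted line a fold change of 1.5. Filled dots number 9 for TBX3iso1 and 13 for TBX3iso2, and no gene is called lower.

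Among the D cyclins and their kinases, *CCND1* was the single gene of 4 tested to rise (25%), against 7.46% and 8.94% of all tested genes. *CCND1* (GRCh37, chromosome 11, 69455924 to 69469242, plus strand) encodes cyclin D1, which activates CDK4 and CDK6 in early G1. It was at 46.4 and 43.4 RPKM in EV, at 72.0 and 69.1 in TBX3iso1 and at 69.6 and 66.5 in TBX3iso2. All 4 isoform libraries were above both EV libraries, and the isoform lines overlapped with each other. It rose 1.57-fold with TBX3iso1 (log2 0.65, 95% interval 0.48 to 0.83, limma adjusted p = 0.000449) and 1.51-fold with TBX3iso2 (0.60, 0.43 to 0.77, adjusted p = 0.000619). *CCND3*, which encodes cyclin D3, did not pass the test, at a mean of 68.6 RPKM in EV, 60.8 in TBX3iso1 and 64.6 in TBX3iso2. RPKM is scaled to transcript length, though replicates of the isoform lines still differed with length, as given below. The ratio of *CCND1* (4238 bases) to *CCND3* (2026 bases) was 0.653 and 0.656 in the EV libraries, 1.22 and 1.10 in TBX3iso1 and 1.11 and 0.998 in TBX3iso2. In both isoform lines it was lower in replicate 2. The kinase genes *CDK4* and *CDK6* had log2 fold changes of 0.23 to 0.27 in both lines and did not pass the test.

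*CCNE1* had the highest fold change with TBX3iso2 and, with TBX3iso1, stood level with *GINS4*, which was above it under 7 of 18 alternatives. It lies on chromosome 19 and encodes cyclin E1, the partner that activates CDK2 for entry into S phase. It was at 4.54 and 4.65 RPKM in EV, at 8.96 and 9.98 in TBX3iso1 and at 9.08 and 10.3 in TBX3iso2. The isoform libraries lay far above EV and overlapped with each other. The rise was 2.04-fold with TBX3iso1 (log2 1.03, 0.80 to 1.26, limma adjusted p = 0.0002) and 2.08-fold with TBX3iso2 (1.06, 0.83 to 1.29, adjusted p = 0.000176). *CCNE2*, its paralog, was higher at a smaller size (log2 0.38 and 0.49, limma adjusted p = 0.00562 and 0.00187). *CCNE1* thus stood at 0.602 and 0.643 of the *CCNE2* level in EV and at 0.867 to 1.02 of it in the isoform libraries.

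*CDC25A*, the phosphatase that removes the inhibitory phosphate from CDK2, was at 6.07 and 5.19 RPKM in EV, 9.49 and 9.63 in TBX3iso1 and 9.98 and 9.41 in TBX3iso2. It rose 1.69-fold and 1.71-fold, with EV below every isoform library (log2 0.76 and 0.78, limma adjusted p = 0.000744 and 0.00063). *CDK2* itself was not called, at log2 fold changes of 0.10 and 0.18.

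The pocket proteins and E2F factors, 5 genes, were the role group with no called gene in either line, where 7.46% and 8.94% of all tested genes rose. *E2F1*, the activator E2F whose own promoter holds the E2F matches shown above, was at 15.0 and 14.1 RPKM in EV, 14.6 and 15.7 in TBX3iso1 and 14.9 and 16.6 in TBX3iso2. The 3 lines overlapped. Its log2 fold change was 0.06 (95% interval −0.14 to 0.26, limma adjusted p = 0.592) with TBX3iso1 and 0.11 (−0.09 to 0.32, adjusted p = 0.318) with TBX3iso2, so a 1.5-fold rise lay outside both intervals. *E2F2* and *E2F3*, the other activators, lay between −0.11 and 0.31 and did not pass. *RB1*, the retinoblastoma pocket protein, was at 0.01 and 0.13. *RBL1*, which encodes p107, was higher at an adjusted p of 0.04 in limma with TBX3iso1 (log2 0.39) and missed the threshold with TBX3iso2 (0.33, adjusted p = 0.0667).

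Origin licensing held 3 called genes of 10 (30%) in each line, against 7.46% and 8.94% of all tested genes. ORC1 and ORC6 are subunits of the origin recognition complex. *ORC1* was at 9.40 and 8.51 RPKM in EV, 15.7 and 15.1 in TBX3iso1 and 14.5 and 13.2 in TBX3iso2, a rise of 1.71-fold and 1.54-fold (limma adjusted p = 0.000414 and 0.00107). *ORC6* was at 11.6 and 10.6 in EV, 15.4 and 16.2 in TBX3iso1 and 16.2 and 17.6 in TBX3iso2. Its fold change was 1.52 with TBX3iso2, just past the fold threshold, and 1.42 with TBX3iso1, just short of it (limma adjusted p = 0.00107 and 0.00239). The EV libraries lay below all others for both genes. *CDC6*, the ATPase that loads the helicase, was higher by 0.52 and 0.45 on the log2 scale (limma adjusted p = 0.000883 and 0.00165), under the 1.5-fold threshold.

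The 6 subunits of the MCM helicase did not move by equal amounts. With TBX3iso1, 4 of the 6 were higher at an adjusted p under 0.05, and with TBX3iso2 5 of 6, against 19.0% and 22.9% of all tested genes. *MCM6* was at 27.2 and 26.2 RPKM in EV, 46.5 and 45.9 in TBX3iso1 and 51.2 and 50.9 in TBX3iso2. The replicates of each line lay close together and the lines did not overlap. The rise was 1.73-fold with TBX3iso1 (log2 0.79, 0.63 to 0.94, limma adjusted p = 0.000113) and 1.91-fold with TBX3iso2 (0.93, 0.78 to 1.09, adjusted p = 5.61e-05). *MCM2* was at 63.4 and 54.9 RPKM in EV, 68.9 and 66.3 in TBX3iso1 and 69.6 and 68.1 in TBX3iso2, above EV in each isoform library, and did not pass the test (log2 0.20 and 0.22, limma adjusted p = 0.103 and 0.0712). *MCM7*, at 177 and 170 RPKM in EV the most abundant of the 46 genes, had log2 fold changes of 0.16 and 0.33 and passed an adjusted p of 0.05 with TBX3iso2 alone. *MCM6* was the least abundant subunit in EV. The ratio of *MCM7* to *MCM6* was 6.51 and 6.50 in EV and between 4.09 and 4.36 in the isoform libraries. *MCM4* and *MCM5* lay between 0.29 and 0.54 in both lines, each under 1.5-fold.

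*MCM3* and *CDT1* differed between the isoform lines. *MCM3* was at 74.4 and 71.6 RPKM in EV, 111 and 113 in TBX3iso1 and 89.3 and 89.9 in TBX3iso2, so TBX3iso2 lay between the other lines without overlap. It rose 1.53-fold with TBX3iso1 (limma adjusted p = 0.000469) and was 1.23-fold higher with TBX3iso2 (adjusted p = 0.0118). *CDT1*, the loader that works with CDC6, was at 19.9 and 18.0 RPKM in EV, 19.3 and 20.6 in TBX3iso1 and 24.3 and 27.4 in TBX3iso2. TBX3iso1 overlapped with EV, and both TBX3iso2 libraries were above all others.

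The genes that activate the loaded helicase were each higher at an adjusted p under 0.05 with TBX3iso2 (6 of 6), and 5 of 6 with TBX3iso1. The shares of all tested genes were 22.9% with TBX3iso2 and 19.0% with TBX3iso1. *GINS4* was at 2.06 and 1.88 RPKM in EV, 4.16 and 3.96 in TBX3iso1 and 3.17 and 3.02 in TBX3iso2. The lines did not overlap, and the rise was 2.01-fold with TBX3iso1 and 1.54-fold with TBX3iso2 (limma adjusted p = 0.000301 and 0.00249). *GINS2*, of the same complex, was at 32.3 and 31.0 RPKM in EV, 36.2 and 43.1 in TBX3iso1 and 53.4 and 62.7 in TBX3iso2. Here TBX3iso2 was the highest line, with a rise of 1.83-fold against 1.25-fold with TBX3iso1 (limma adjusted p = 0.000663 and 0.0462). The ratio of *GINS2* to *GINS4* was 15.7 and 16.5 in EV, 8.70 and 10.9 in TBX3iso1 and 16.8 and 20.8 in TBX3iso2, so TBX3iso1 was the line with the lower ratio. *MCM10*, which helps to activate the helicase, was at 8.05 and 7.04 RPKM in EV, 10.1 and 9.96 in TBX3iso1 and 12.6 and 11.4 in TBX3iso2. It rose 1.58-fold with TBX3iso2 (limma adjusted p = 0.00126) and was 1.33-fold higher with TBX3iso1 (adjusted p = 0.0104). *CDC45*, *GINS1* and *GINS3* lay between 0.25 and 0.46 on the log2 scale in both lines.

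At the fork itself, *FEN1* and *RFC3* were the called genes of 10. That was 1 gene (10%) with TBX3iso1, near the 7.46% of all tested genes, and 2 (20%) with TBX3iso2, against 8.94%. *FEN1*, the flap nuclease of lagging strand synthesis, was at 47.5 and 46.3 RPKM in EV, 71.3 and 79.8 in TBX3iso1 and 68.8 and 78.5 in TBX3iso2. The isoform lines overlapped, both above EV, with rises of 1.61-fold and 1.57-fold (limma adjusted p = 0.000983 and 0.00124). *RFC3*, a clamp loader subunit, was at 13 and 12.2 in EV, 17.2 and 17.6 in TBX3iso1 and 19.8 and 18.2 in TBX3iso2, and was called with TBX3iso2 (1.51-fold, limma adjusted p = 0.000879) at 1.38-fold with TBX3iso1. Among the 4 RFC genes, 1 was higher at an adjusted p under 0.05 with TBX3iso1 and 3 with TBX3iso2. The shares of all tested genes were 19.0% and 22.9%. *PCNA*, the sliding clamp, was at 164 and 159 RPKM in EV, 185 and 205 in TBX3iso1 and 205 and 233 in TBX3iso2, above EV in every isoform library. It passed an adjusted p of 0.05 with TBX3iso2 (log2 0.44, limma adjusted p = 0.00979) and missed it with TBX3iso1 (0.27, adjusted p = 0.0606).

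The polymerases and the ligase held no called gene, where 7.46% and 8.94% of all tested genes rose. With so few genes, an absence of calls is near those shares. *POLA1* and *POLE*, the catalytic subunits of polymerases alpha and epsilon, had log2 fold changes between 0.00 and 0.13 with libraries that overlapped with EV, and *POLD1*, of polymerase delta, was at 0.20 and 0.28. *LIG1*, the ligase of the lagging strand, was higher with TBX3iso1 (log2 0.34, limma adjusted p = 0.00732) and at 0.11 with TBX3iso2. *RFC2*, *RFC4* and *RFC5* lay between 0.08 and 0.48 and none was called.

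All 3 nucleotide supply genes were higher at an adjusted p under 0.05 in both lines, against 19.0% and 22.9% of all tested genes. *RRM2*, the small subunit of ribonucleotide reductase that limits supply in S phase, was at 76.0 and 72.3 RPKM in EV, 98.6 and 101 in TBX3iso1 and 117 and 120 in TBX3iso2. The 3 lines did not overlap, in the order EV, TBX3iso1, TBX3iso2. It was 1.34-fold higher with TBX3iso1 and rose 1.60-fold with TBX3iso2 (limma adjusted p = 0.00278 and 0.00032), and the difference between the isoform lines did not pass (0.25, adjusted p = 0.0576). The large subunit *RRM1* and thymidylate synthase *TYMS* lay between 0.22 and 0.51.

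Of the chromatin and histone supply genes, *CDCA7*, which works with the remodeller HELLS in DNA methylation, was at 8.84 and 8.48 RPKM in EV, 15.2 and 14.0 in TBX3iso1 and 15.4 and 15.4 in TBX3iso2. It rose 1.68-fold and 1.77-fold (limma adjusted p = 0.000284 and 0.000179), with no overlap with EV. *UHRF1*, which brings the maintenance methyltransferase to new DNA, was higher by 0.48 and 0.50 on the log2 scale (limma adjusted p = 0.00231 and 0.00177). *SLBP*, the histone mRNA binding protein, was at 39.1 and 38.5 RPKM in EV, 37.9 and 40.7 in TBX3iso1 and 46.7 and 51.8 in TBX3iso2, so TBX3iso1 overlapped with EV and TBX3iso2 did not.

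**Figure D2:**
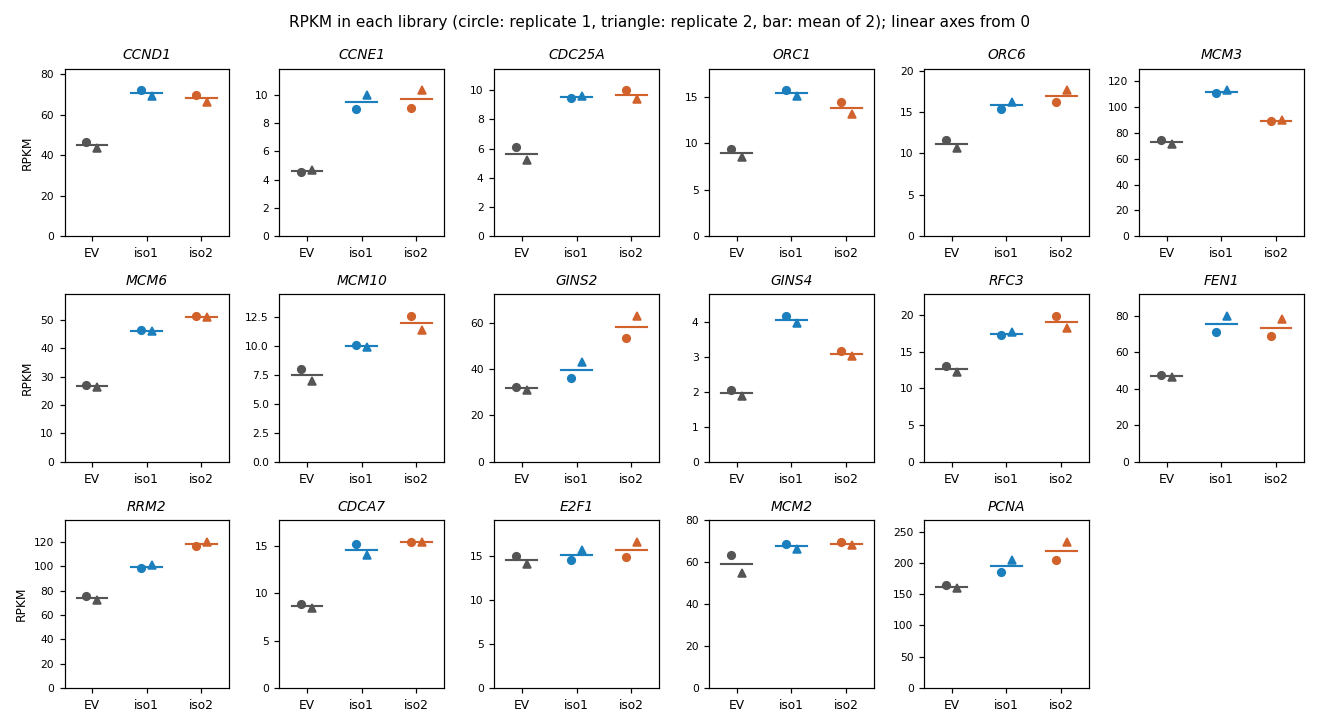
RPKM (vertical axes, linear from 0) in the 2 libraries of EV, TBX3iso1 and TBX3iso2 for the 14 genes that rose in at least 1 line and for *E2F1*, *MCM2* and *PCNA*; circles are replicate 1, triangles replicate 2 and bars the mean. *CCNE1* goes from 4.54 and 4.65 in EV to 8.96 or more in each isoform library, while *E2F1* stays between 14.1 and 16.6 in all 6.

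The isoform lines, which also differed in *TBX3* (0.43 higher in TBX3iso2 on the log2 scale, limma adjusted p = 0.0275), were compared with each other. No member was called at the 1.5-fold threshold, where 3.47% of all tested genes were higher and 2.82% lower in TBX3iso2. At an adjusted p under 0.05 alone, 3 members were higher in TBX3iso2 and 2 lower, against 8.79% and 5.97% of all tested genes. At an unadjusted limma p under 0.05 they were 7 and 4, against 19.3% and 11.6%, so none of these shares exceeded the background. The higher genes were *GINS2* (log2 difference 0.55, limma adjusted p = 0.0167), *CDT1* (0.37, adjusted p = 0.0336) and *SLBP* (0.32, adjusted p = 0.0356). The lower ones were *MCM3* (−0.32, limma adjusted p = 0.0244) and *GINS4* (−0.38, adjusted p = 0.0497). Under the 18 alternative settings the direction of all 5 differences was kept, but the adjusted p passed 0.05 in 13 for *GINS2*, 11 for *MCM3*, 9 for *CDT1*, 9 for *SLBP* and 7 for *GINS4*. The median difference over the members was 0.06, close to the 0.05 of all tested genes.

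The fold changes were also read by the E2F matches shown above. With TBX3iso1 the median on the log2 scale was 0.33 over the 22 members with a match and 0.24 over the 17 without. Of these members 4 (18.2%) and 3 (17.6%) rose. With TBX3iso2 the medians were 0.43 and 0.36, and 5 (22.7%) and 6 (35.3%) rose. Over all tested genes with a promoter, the 636 with a match had medians of −0.02 and 0.04 and the 8836 without had −0.05 and 0.00. Of the genes with and without a match, 5.66% and 7.23% rose with TBX3iso1, and 9.28% and 8.86% with TBX3iso2. The difference between these groups was not tested.

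The other genes of the pathway were 69 in number and all were tested. With TBX3iso1 1 rose (1.45%, against 7.46% of all tested genes), and with TBX3iso2 9 rose (13%, against 8.94%). In each line 3 fell (4.35%), against 14.1% and 12.3%. At an adjusted p under 0.05 alone, 22 (31.9%) were higher and 7 (10.1%) lower with TBX3iso1, against 19.0% and 25.7% of all tested genes. With TBX3iso2, 30 (43.5%) were higher and 9 (13%) lower, against 22.9% and 22.7%. The median log2 fold change was 0.16 and 0.20, between that of the members and that of all tested genes. The gene that rose with TBX3iso1 was *GMNN*, which encodes geminin, the inhibitor of CDT1 (log2 0.62, limma adjusted p = 0.00237). With TBX3iso2 the list included *POLE2*, a subunit of polymerase epsilon (0.93, limma adjusted p = 0.000194), *E2F5*, an E2F that acts as a repressor (0.91, adjusted p = 0.000457), and *TIPIN*, of the fork protection complex (0.80, adjusted p = 0.000686). The rest were *POLE4* (0.71), *CHEK1* (0.70), *HELLS* (0.66), *POLA2* (0.64), *CCNH* (0.63) and *CLSPN* (0.61). *E2F5* was the single pathway gene called between the isoform lines, 0.59 higher in TBX3iso2 (limma adjusted p = 0.0115) and just past 1.5-fold. Just short of 1.5-fold were *SKP2* at −0.585 (limma adjusted p = 0.0062) and *POLE2* at 0.576 (adjusted p = 0.00633). At an adjusted p under 0.05 alone, 6 (8.70%) were higher in TBX3iso2 and 2 (2.90%) lower, against 8.79% and 5.97% of all tested genes.

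Among the genes that fell were brakes on the same step. *RBL2*, which encodes the pocket protein p130, was at 12.1 and 11.7 RPKM in EV, 6.84 and 5.48 in TBX3iso1 and 6.89 and 5.46 in TBX3iso2, and fell by 0.95 on the log2 scale in both (limma adjusted p = 0.00142 and 0.0014). *CDKN2B*, which encodes the CDK4 and CDK6 inhibitor p15, was at 8.11 and 7.97 in EV, 5 and 4.46 in TBX3iso1 and 5.14 and 4.18 in TBX3iso2 (log2 −0.76 and −0.78, limma adjusted p = 0.00185 and 0.00156). *CDKN1B*, which encodes the CDK2 inhibitor p27, was at 17.4 and 17.9 in EV, 15.4 and 15.9 in TBX3iso1 and 11.1 and 10.7 in TBX3iso2. It fell with TBX3iso2 (−0.69, limma adjusted p = 0.000265) and was at −0.17 with TBX3iso1 (adjusted p = 0.0863). The 3 lines did not overlap for *CDKN1B*, and TBX3iso2 was lower than TBX3iso1 by a log2 difference of −0.52 (limma adjusted p = 0.00404).

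Of the 7 CDK inhibitor genes, 2 (28.6%) were lower at an adjusted p under 0.05 with TBX3iso1, near the 25.7% of all tested genes, and 5 (71.4%) with TBX3iso2, against 22.7%. None was higher at that threshold in either line. *CDKN2A*, the locus of p16 and ARF, was lower by less than 1.5-fold in both (−0.44 and −0.33, limma adjusted p = 0.00533 and 0.0173). *CDKN1A*, which encodes p21, was at −0.21 with TBX3iso1 (limma adjusted p = 0.115) and −0.35 with TBX3iso2 (adjusted p = 0.0231). *CDKN1C* was at −0.08 and −0.44, where the first value turned positive under median-ratio scaling (0.002) and quantile normalization (0.151), and *CDKN2C* and *CDKN2D* lay between −0.12 and 0.10. *POLD4*, the small subunit of polymerase delta, fell with TBX3iso1 (−0.60, limma adjusted p = 0.00428).

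Genes of G2 and mitosis were set beside the members because they also follow the share of cycling cells. Of 46 tested, 2 rose with TBX3iso1 (4.35%, against 7.46% of all tested genes) and 4 with TBX3iso2 (8.70%, against 8.94%). None fell in either line, where 14.1% and 12.3% of all tested genes were called lower. At an adjusted p under 0.05 alone, 13 (28.3%) were higher with TBX3iso1, against 19.0%, and 26 (56.5%) with TBX3iso2, against 22.9%. Their medians on the log2 scale were 0.12 for TBX3iso1 against EV and 0.29 for TBX3iso2 against EV, below that of the members in both lines. *MKI67*, the usual proliferation marker, was at 24.4 and 24.3 RPKM in EV, 24.4 and 20.1 in TBX3iso1 and 26.1 and 16.6 in TBX3iso2, with the lines overlapping. *TOP2A* was at 64.3 and 61.1 in EV, 59.7 and 51.1 in TBX3iso1, below EV, and 64.5 and 51.1 in TBX3iso2, and passed the test in neither line. *CCNB1* was at 79.6 and 77.3 in EV, 89.4 and 100 in TBX3iso1 and 111 and 122 in TBX3iso2. It was higher by less than 1.5-fold in both lines (log2 0.27 and 0.57, limma adjusted p = 0.0402 and 0.00179).

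**Figure D3:**
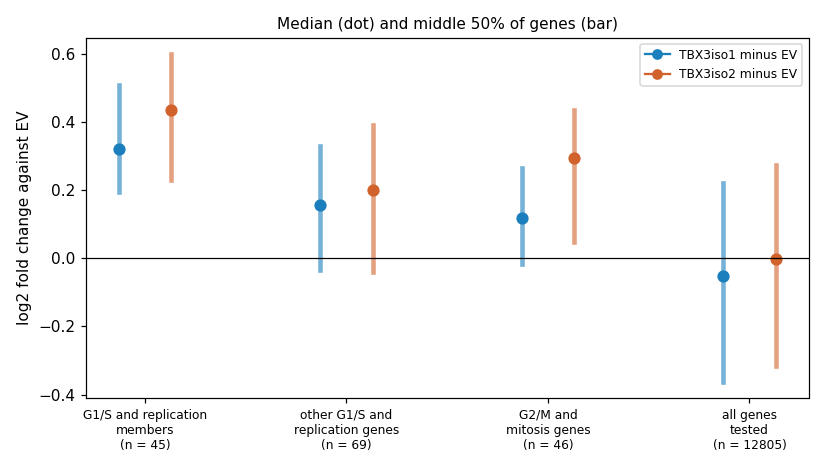
Median (dot) and middle 50% of genes (bar) of the log2 fold change against EV (vertical axis) with TBX3iso1 (blue) and TBX3iso2 (orange), for the 45 G1/S and replication genes tested, the 69 other genes of the pathway, 46 genes of G2 and mitosis and all 12805 tested genes. The medians of the first list are 0.32 and 0.43, those of all tested genes −0.05 and 0.00.

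Replicates of the isoform lines differed with transcript length. Over the 45 members, Spearman's rho between transcript length and the log2 difference of replicate 2 minus replicate 1 was −0.30 in EV, −0.80 in TBX3iso1 and −0.78 in TBX3iso2. Over the 11676 tested genes with a length it was −0.14, −0.59 and −0.64, as a description across genes of 2 libraries each. The long genes *POLE*, *POLA1* and *MKI67* were thus lower in replicate 2 of both isoform lines and the short genes *FEN1* and *PCNA* higher. The members had a median length of 3121 bases, against 3190 for all tested genes with a length. For TBX3iso2 against TBX3iso1, rho between length and the log2 difference was −0.50 over the members and 0.02 over all these genes. Against EV it was 0.07 over the members with TBX3iso1 and −0.22 with TBX3iso2. *SLBP*, *GINS2* and *CDT1*, higher in TBX3iso2, had 1810, 2628 and 2664 bases. *MCM3* and *GINS4*, lower there, had 3068 and 3770. The part of length in these differences was not tested. With the length trend removed from each library, 9 members rose with TBX3iso1 and 10 with TBX3iso2, at medians of 0.32 and 0.40. With the first library of each isoform line alone the counts were 9 and 11.

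**Figure D4:**
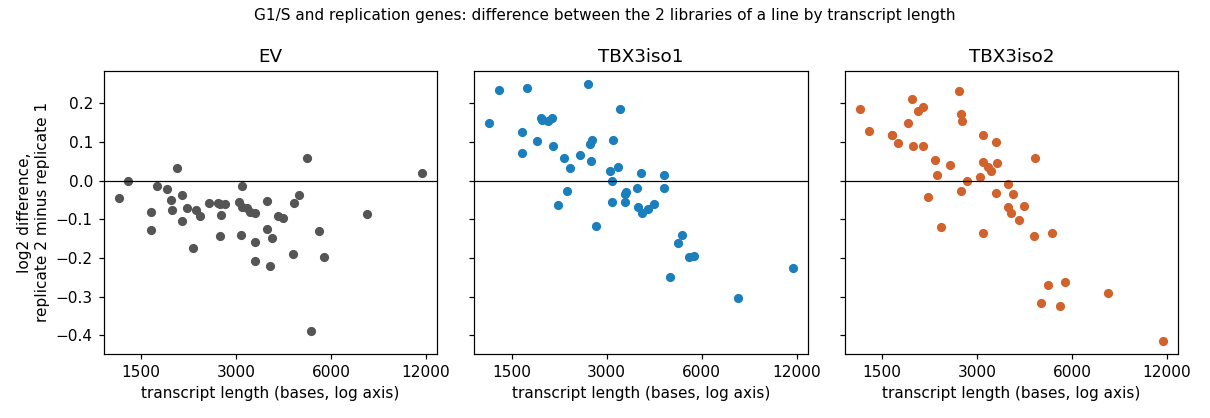
Log2 difference between the 2 libraries of a line (vertical axis, replicate 2 minus replicate 1) against transcript length in bases (horizontal log axis), for the 45 tested genes in EV, TBX3iso1 and TBX3iso2; each dot is a gene. The dots slope down with length, with rho of −0.80 in TBX3iso1 and −0.78 in TBX3iso2 against −0.30 in EV.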

How the data were processed

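Stranded mRNA libraries of the 3 lines (2 each) were sequenced paired-end on an Illumina HiSeq. Reads were mapped by the authors to hg19 using TopHat on the Galaxy platform, allowing up to 10 alignments per read, and computed RPKM in Partek Genomics Suite. The deposited unit was RPKM, reads scaled to transcript length and library size. Software versions and the gene annotation were not given in the sources used here, so reads shared with paralogs or antisense genes could not be assessed. Lengths of 1 transcript per gene came from GENCODE on GRCh37 and covered 91.2% of the tested genes, and promoters came from RefSeq on GRCh38.p14.

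Values were analysed as log2(RPKM + 0.1), on which fold changes of low genes are understated. The 12805 genes that averaged 0.5 RPKM or more were tested in limma 3.58.1 (R 4.3.3) over all 6 libraries, with 1 mean per line, a variance trend and Benjamini-Hochberg adjustment over all tested genes. A call needed a change of more than 1.5-fold and an adjusted p under 0.05. An exact permutation test of 2 against 2 libraries cannot go below p = 0.333. The table gives no counts, so precision was taken from the replicates.

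Values in every library are given for members called in at least 1 comparison and, whatever their values, for *CCND1*, *CCNE1*, *E2F1*, *MCM2*, *PCNA* and *RRM2*, for the CDK inhibitors and *RBL2* where they were called, and for *MKI67*, *TOP2A* and *CCNB1*. *CDT1* and *SLBP* are added because they differed between the isoform lines. Other pathway genes are named where they were called, and *SKP2* because it came close to a call between the isoform lines. The members and lists were chosen with earlier results of these data known. The alternatives were 2 other pseudocounts, no filter, a stricter filter, 2 other normalizations, only the lines compared, a replicate block, no trend and each library left out. Another 3 were chosen after the data were seen: a length correction, the same with the block, and the first isoform libraries only.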

Additional observations from a re-analysis of the deposited data

Results flagged for a closer look

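For 5 genes the change against EV differed between the isoform lines, by limma's test of TBX3iso2 against TBX3iso1 with Benjamini-Hochberg adjustment. At an adjusted p under 0.05, 3 members (6.67%) were higher in TBX3iso2 and 2 (4.44%) lower. The shares of all tested genes were 8.79% and 5.97%, so the members did not exceed the background. *GINS2* was higher in TBX3iso2 by 0.55 on the log2 scale (limma adjusted p = 0.0167), and over the alternative settings its adjusted p ran from 0.000118 to 0.0707. *CDT1* was higher by 0.37 (limma adjusted p = 0.0336, range 0.00347 to 0.134), and *SLBP* by 0.32 (adjusted p = 0.0356, range 0.00102 to 0.152). *MCM3* had a difference of −0.32 (limma adjusted p = 0.0244, range 0.000725 to 0.0976), and *GINS4* of −0.38 (adjusted p = 0.0497, range 0.00785 to 0.207). Both libraries of one isoform line lay outside the range of the other for each of the 5 genes, which were picked by a test on the same values. Over all 12805 tested genes, both TBX3iso2 libraries were above TBX3iso1 for 4271 and below for 2577. *TBX3* itself was 0.43 higher in TBX3iso2 than in TBX3iso1 on the log2 scale (limma adjusted p = 0.0275). Each isoform was carried by a single pool, so isoform, level of *TBX3* and pool cannot be told apart. The cause of the 5 differences was not tested.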

How the results depend on the processing

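The count of members that rose with TBX3iso1 was 9 to 10 with each library left out in turn, and that with TBX3iso2 was 7 to 13. Members higher at an adjusted p under 0.05 numbered 14 to 30 and 19 to 32, with the lowest values without EV replicate 2. Each of these fits left out 1 library, and the reason for the lowest values was not tested. The median log2 fold change ran from 0.29 to 0.35 with TBX3iso1 and from 0.38 to 0.47 with TBX3iso2. Between the isoform lines, leaving out libraries gave 0 to 1 members called higher (1 without TBX3iso1 replicate 2 and 1 without TBX3iso2 replicate 1, *GINS2* in both) and medians of 0.06 to 0.08. Median-ratio scaling, which divides each library by 1 factor, gave a median of 0.40 with TBX3iso1 and of 0.007 between the isoform lines. The medians of all tested genes moved as well, from −0.051 to 0.031 with TBX3iso1 and from 0.054 to 0.005 between the isoform lines.

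Of the genes called with TBX3iso1, *CCNE1*, *CDC25A*, *ORC1*, *MCM6*, *GINS4*, *FEN1* and *CDCA7* were called under all 18 alternatives, and *CCND1* and *MCM3* under 17. With TBX3iso2, *CCNE1*, *CDC25A*, *MCM6*, *GINS2* and *CDCA7* were called under all 18. *ORC6* and *RFC3*, just past 1.5-fold, were called under 12, *FEN1* under 13, *CCND1* and *ORC1* under 15, *GINS4* under 16, and *MCM10* and *RRM2* under 17. Quantile normalization moved the split of all called genes with TBX3iso1 from 955 higher and 1802 lower to 1259 and 1313.

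Nothing stated whether the replicate numbers pair libraries across the lines. With the replicate block the counts that rose stayed at 9 and 13. Those at an adjusted p under 0.05 and higher were 34 and 35, against 25 and 31 without the block. Under the block *CDK4*, *CDK6*, *E2F2*, *MCM2*, *GINS3*, *PCNA*, *RFC2*, *RFC4* and *POLD1* came under 0.05 with TBX3iso1 (limma adjusted p 0.0215 to 0.0433), and *CDK4*, *CDK2*, *RBL1* and *MCM2* with TBX3iso2 (0.00756 to 0.0366), none past 1.5-fold. The correlations of the deviations of same-numbered libraries were 0.22, 0.11 and 0.50. With the replicate block and the length correction the counts that rose were 9 and 10, and those at an adjusted p under 0.05 and higher 35 and 37.

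Signs turned for values that had not been called. With each library left out in turn, the TBX3iso1 values ran from −0.111 to 0.138 for *RB1*, −0.149 to 0.155 for *POLE*, −0.033 to 0.07 for *SLBP*, −0.002 to 0.207 for *CDKN2C* and −0.012 to 0.145 for *CDKN2D*. The TBX3iso2 values ran from −0.023 to 0.287 for *RB1*, −0.304 to 0.083 for *E2F2*, −0.171 to 0.099 for *E2F3*, −0.07 to 0.255 for *POLA1*, −0.094 to 0.195 for *POLE* and −0.093 to 0.057 for *CDKN2D*. Quantile normalization gave −0.038 for *SLBP*, 0.151 for *CDKN1C*, 0.045 for *E2F2*, 0.012 for *E2F3* and 0.074 for *CDKN2D*, and median-ratio scaling 0.002 for *CDKN1C* and 0.013 for *CDKN2D*. The length correction, with and without the block, gave −0.053 for *SLBP*, −0.014 for *CDKN2C*, −0.023 for *CDKN2D* and 0.019 for *E2F3*. The first isoform libraries alone gave −0.033 for *SLBP*, −0.012 and 0.057 for *CDKN2D* and 0.099 for *E2F3*. With 2 libraries of a single pool per line, differences under 1.5-fold rest on few values.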

Other observations

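RPKM is scaled to transcript length, so the levels of the 46 genes in EV were ordered. The order is approximate, since the annotation was not given and reads shared with paralogs could not be assessed. *MCM7* (174 RPKM), *PCNA* (162) and *CDK4* (114) stood highest, all 3 above 100 in both EV libraries, followed by *RRM2* (74.1). *MCM7* and *PCNA* did not overlap in EV, at 177 and 170 against 164 and 159. The lowest of the tested genes were *CCNE1* (4.60), *E2F2* (2.58) and *GINS4* (1.97), and *E2F2* lay above *GINS4* in both libraries. Of the low genes, *CCNE1* and *GINS4* had the highest fold changes of the members with TBX3iso1, and *E2F2* was not called.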
